A study of Mus musculus with 16 samples.

Results

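The comparison described here is that of untreated Sucnr1 knockout mice with untreated wild-type mice, 8 of the 16 libraries of the series. Its members were taken from the sample titles: 4 libraries titled knockout without hydroquinone and 4 titled wild type without hydroquinone. Each library was prepared from the retinal pigment epithelium (RPE) of 1 eye of a male C57BL/6 mouse aged 40 weeks. The wild-type libraries came from 2 mice, with replicates 1 and 2 from the right and left eye of the first and replicates 3 and 4 from the right and left eye of the second. The knockout libraries came from 3 mice, with replicates 1 and 3 from the left and right eye of the same mouse and replicates 2 and 4 from the left eye of 1 further mouse each. The remaining 8 libraries, 4 knockout and 4 wild type from 8 further mice of the same strain, sex and age exposed to the oxidant hydroquinone, shared the fit and served as a separate comparison of the genotypes. The labels do not say which part of Sucnr1 was removed, whether wild-type mice were littermates, or how hydroquinone was given.

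SUCNR1 is a G protein-coupled receptor on the cell surface that is activated by succinate, an intermediate of the tricarboxylic acid cycle. It signals through inhibitory G proteins and, in some cells, through the calcium-mobilising Gq class, and it is known from kidney, adipose tissue, retina, macrophages and dendritic cells. The RPE is a pigmented monolayer between the photoreceptors and the choroid that regenerates retinoid for vision, engulfs shed outer segments and forms the outer blood-retina barrier. The series was framed around age-related macular degeneration, and the question of the untreated comparison is what loss of the receptor alone does to the RPE transcriptome.

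The 8 untreated libraries held 21113549 to 31089282 counts each and 17904 to 24477 genes with at least 1 count. Wild-type replicate 3 (18282 genes) and knockout replicate 1 (17904 genes) had the fewest detected genes. RPE identity was present in every library: 12 RPE markers summed to between 22430 and 31890 CPM (counts scaled to a common library size, with TMM factors) in wild type and to between 22750 and 31010 CPM in knockout. Markers of neighbouring tissue were present too. The sum of 15 rod photoreceptor markers ran from 1096 to 10490 CPM in wild type and from 367 to 25360 CPM in knockout, with the highest value in knockout replicate 4. Library identifiers in the labels carry a letter in replicates 2 and 4 of wild type and 3 and 4 of knockout, and within each genotype the untreated libraries with a letter had the higher rod sums. This did not hold under hydroquinone. There the wild-type library with a letter had the lowest rod sum of its group (555 CPM). The highest knockout sum (23020 CPM) was in a library without a letter. Because of the untreated libraries, identifier form was handled as a possible batch. It was balanced between the genotypes in number, but eye side was not. In wild type the libraries with a letter were the left eyes and those without were the right eyes. Libraries without a letter therefore set wild-type right eyes against knockout left eyes, and identifier form and eye side cannot be told apart there.

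Sucnr1 (ENSMUSG00000027762, GRCm38 chr3:60081869-60087566, plus strand) was scarce in every library. Its counts were 10, 17, 0 and 1 in wild-type replicates 1 to 4 and 0, 0, 3 and 0 in knockout replicates 1 to 4. The first wild-type mouse gave 27 of the 28 wild-type counts, and the mean level of the other wild-type mouse was within the range of the knockout mice. Pooled over libraries the CPM ratio of wild type to knockout was 9.95, with an exact 95% interval of 3.07 to 51.1 that covers counting error only. With the eyes of a mouse averaged, log2(CPM + 1) was lower by 0.28 in knockout (exact permutation test of 3 against 2 mice, two-sided, p = 0.2, the smallest possible value being 0.1). A count of 0 allows up to 0.0968 to 0.144 CPM in these libraries. Sucnr1 lay below the level needed for the gene-wise test, and its counts set the genotypes apart through the first wild-type mouse only.

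No gene passed the threshold between untreated knockout and wild type. Of 15380 genes tested with edgeR's quasi-likelihood test, 0 had a Benjamini-Hochberg adjusted p below 0.05 (0%), and the smallest adjusted p was 1.00. DESeq2 also called 0 genes. At an unadjusted p below 0.05, which is a ranking and not a call, edgeR gave 203 genes (1.32%) and DESeq2 265. Of the 203 genes, 130 were fitted lower in knockout (0.845% of genes tested) and 73 higher (0.475%). Libraries of the genotypes did not overlap for 162 genes (1.05%), 103 lower (0.67%) and 59 higher (0.384%), and mouse means did not overlap for 1710 genes (11.1%). The 203 became 320 without knockout replicate 1 and 375 without knockout replicate 2. Within the libraries without a letter 87 of 162 such genes (53.7%) were fitted lower, and within those with a letter 538 of 637 (84.5%), against 64.0% in all. Eyes of the same mouse are not independent samples, so the p-values given here may be too small. Their correlation, estimated over all genes with limma, was -0.02. This value rests on the few mice with both eyes sequenced, whose eyes always differed in identifier form. It does not show that eyes are independent. The 1.32% was also below the share of 0.05 that such a threshold gives by chance alone. Shares such as 0.845% are therefore a low benchmark for the list counts below.

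The intervals show which differences the data leave room for. For 11640 genes (75.7%) the 95% interval of the fold change lay within 2-fold in both directions, and for 8026 (52.2%) within 1.5-fold. With the eyes of each mouse summed these numbers were 10582 genes (68.8%) and 6006 genes (39.1%). The plot of fold change against level shows all genes tested, with those at an unadjusted p below 0.05 marked.

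**Figure D1:**
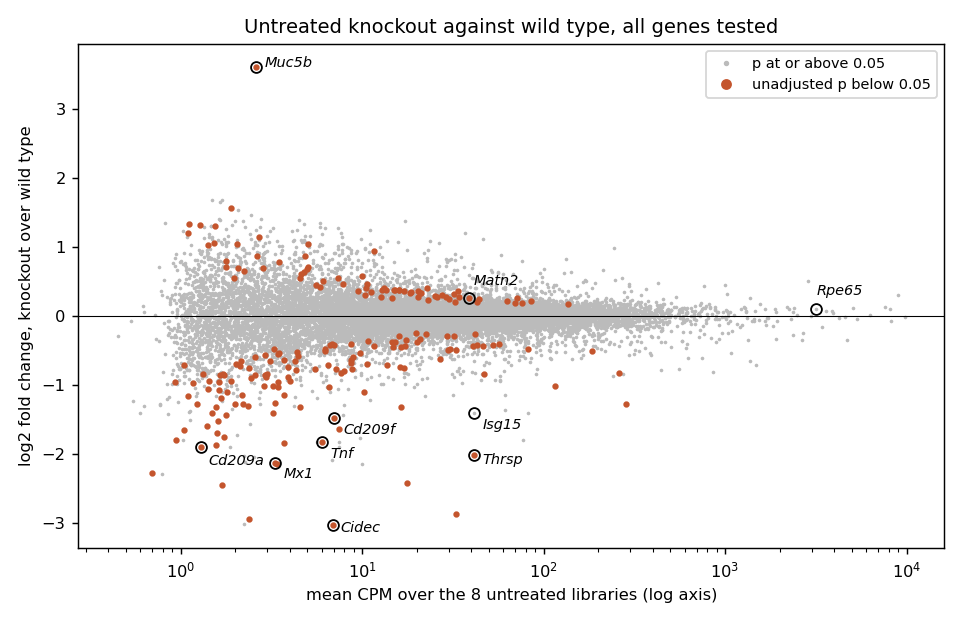
Log2 fold change of knockout over wild type (vertical axis) against the mean CPM of the 8 untreated libraries (horizontal log axis) for the 15380 genes tested. Red points are the 203 genes with an unadjusted p below 0.05, circled genes are described in the text, and no gene had an adjusted p below 0.05.

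The gene with the smallest p was Cd209a (ENSMUSG00000031494, chr8:3743397-3748984, minus strand), which encodes a C-type lectin of the DC-SIGN family found on dendritic cells derived from monocytes. Its level was 2.63, 2.00, 2.72 and 0.87 CPM in wild-type replicates 1 to 4 and 0.53, 0.82, 0.32 and 0.52 CPM in knockout replicates 1 to 4. The libraries did not overlap, although the lowest wild-type library and the highest knockout library differed by little. The log2 fold change was -1.90 (SE 0.41; edgeR unadjusted p = 3.4e-04, adjusted p = 1.00). Cd209a had been singled out for this small p, so the p describes it and tests nothing. Over mice the difference in log2(CPM + 1) was -0.90 (exact permutation test, two-sided, p = 0.1, the smallest this design allows). Leaving out each untreated library in turn gave log2 fold changes from -2.17 to -1.71, and the values within libraries without and with a letter were -1.98 and -1.76.

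Cd209a sits in a cluster of related lectin genes on chromosome 8, of which 5 were abundant enough to be tested. Cd209f (chr8:4102787-4105835) was at 11.2, 12.9, 13 and 4.19 CPM in wild type and at 5.94, 4.49, 1.68 and 2.81 CPM in knockout. Its log2 fold change was -1.47 (SE 0.40; edgeR unadjusted p = 0.0022, adjusted p = 1.00), with wild-type replicate 4 below 2 knockout libraries. Cd209d had a log2 fold change of -1.28 (SE 0.54; edgeR unadjusted p = 0.031). For Cd209b and Cd209g the values were -0.82 and -0.43, with unadjusted p of 0.161 and 0.479 (edgeR). Within libraries without and with a letter the values were -0.89 and -1.92 for Cd209d, -0.60 and -1.29 for Cd209b and 0.26 and -1.84 for Cd209g. With 1 library left out the values ran from -1.93 to -0.99 for Cd209d, from -1.42 to -0.545 for Cd209b and from -1.32 to -0.12 for Cd209g. The lowest value of each was that without knockout replicate 1. Wild-type replicate 4 had the lowest or next to lowest wild-type level of all 5 genes, while its fellow eye, replicate 3, was high for 4 of them and low for Cd209g. Of the 50-base windows of their exons, 29.8% in Cd209f and 16.6% in Cd209g were shared with another Cd209 gene, so reads of these 2 genes may have been split between copies. No such window was shared by Cd209a, Cd209b or Cd209d.

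Other genes of antigen-presenting cells differed less. Of 22 dendritic cell and Cd209 genes listed, 16 could be tested: 15 were fitted lower (46.8% of all genes were) and 1 higher, with a median log2 fold change of -0.32 against 0.01 over all genes. The members with an unadjusted p below 0.05 were Cd209a, Cd209d and Cd209f, 3 of 16 against 0.845% of all genes on the lower side. Cd209a had been singled out for its small p and the list was built to hold its family, so this count is not a test. The median depended on the libraries used: it was 0.16 within libraries without a letter and -1.09 within those with one. It was -0.16 without wild-type replicate 2, -0.15 without knockout replicate 3, -0.10 without knockout replicate 4 and -0.58 without knockout replicate 1. Class II antigen presentation genes had values of -0.30 for Cd74 (the invariant chain), -0.34 for H2-Aa, -0.23 for H2-Ab1 and -0.28 for H2-Eb1. Clec10a, a galactose-binding lectin, was at -0.52, Itgax, the integrin CD11c, at -0.01 and Zbtb46, a transcription factor of classical dendritic cells, at 0.02. The summed level of the list overlapped between wild type (225 to 380 CPM) and knockout (143 to 366 CPM). In these bulk samples fewer cells of a type and less RNA per cell cannot be told apart.

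Macrophage markers had values close to 0. Csf1r, the receptor for macrophage colony-stimulating factor, was at 218, 249, 261 and 201 CPM in wild type and at 263, 226, 242 and 191 CPM in knockout. Its log2 fold change was -0.01 with a 95% interval of -0.38 to 0.36. Among 18 macrophage and microglia markers 14 were fitted lower and 4 higher, with a median of -0.07 and none at an unadjusted p below 0.05; for 12 of 18 the 95% interval stayed within 2-fold. Over the 23 alternative analyses this median ran from -0.61 within libraries with a letter to 0.31 within those without one. Their sum was 735 to 934 CPM in wild type and 629 to 954 CPM in knockout. Tmem119, a microglial membrane protein, was the exception in having libraries that did not overlap: 17.6 to 25.9 CPM in wild type and 13.6 to 16.8 CPM in knockout (log2 fold change -0.42, SE 0.21; edgeR unadjusted p = 0.059).

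C5ar1, C7, Ptger3 and Emilin2 were also among the 12 lower genes with the smallest p. C5ar1, the receptor for the complement fragment C5a, was at 5.37, 4.74, 5.47 and 3.05 CPM in wild type and at 1.73, 2.88, 1.32 and 1.83 CPM in knockout. Every wild-type library was above every knockout library, and the log2 fold change was -1.26 (SE 0.35; edgeR unadjusted p = 0.0024, adjusted p = 1.00). C7, a component of the membrane attack complex, had levels of 7.26, 4.27, 10.7 and 3.67 CPM in wild type and 1.44, 3.96, 2.10 and 2.88 CPM in knockout. Its libraries overlapped (log2 fold change -1.32, SE 0.38; edgeR unadjusted p = 0.0035), and the values without and with a letter were -1.72 and -0.67. Ptger3, the EP3 receptor for prostaglandin E2, was at 3.55, 9.25, 3.66 and 2.36 CPM in wild type and at 1.39, 1.54, 1.55 and 2.66 CPM in knockout. Here too the libraries overlapped (log2 fold change -1.40, SE 0.39; edgeR unadjusted p = 0.0028). The highest level was in wild-type replicate 2, which was also the highest library for adipocyte markers, and without it the log2 fold change of Ptger3 was -0.84. The part of those markers in it was not tested. Emilin2, a glycoprotein of the extracellular matrix, was at 24.7, 17.2, 22 and 16.7 CPM in wild type and at 16.7, 11.9, 11.0 and 8.83 CPM in knockout. Its lowest wild-type and highest knockout libraries nearly met (log2 fold change -0.74, SE 0.20; edgeR unadjusted p = 0.0022).

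Of the 22 genes of the complement list 21 were tested, 15 were fitted lower and 6 higher, and the median log2 fold change was -0.19. It ran from -0.02 within libraries without a letter to -0.42 within those with one. Leaving out wild-type replicate 1, 2 or 3 gave -0.064, -0.052 and -0.068, and leaving out knockout replicate 3 or 4 gave -0.072 and -0.048. The C1q chains C1qa, C1qb and C1qc had values of -0.38, -0.42 and -0.19 and C3 was at -0.40, each with an unadjusted p above 0.05. Only C5ar1 and Cfd (complement factor D) had an unadjusted p below 0.05 (2 of 21, against 0.845% of all genes on the lower side), and Cfd is taken up with the adipocyte markers. Ranges for the whole list overlapped, at 4879 to 5819 CPM in wild type and 4453 to 6097 CPM in knockout.

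Inflammatory cytokines and their regulators were fitted lower with 1 exception. Of 20 genes 15 were tested, 14 were fitted lower (against 46.8% of all genes) and 1 (Icam1, a leukocyte adhesion molecule, at 0.02) higher. The median was -0.36, with values from -0.63 (libraries with a letter) to -0.15 (a mean of at least 5 CPM) in the 23 alternative analyses, and 4 genes had an unadjusted p below 0.05, against 0.845% of all genes on the lower side. Tnf, the cytokine tumour necrosis factor, was at 15.7, 7.17, 3.79 and 10.8 CPM in wild type and at 0.77, 3.60, 1.61 and 4.57 CPM in knockout. Wild-type replicate 3 was below knockout replicate 4, and the log2 fold change was -1.82 (SE 0.62; edgeR unadjusted p = 0.0098, adjusted p = 1.00). Cxcl1, a neutrophil chemokine, was at 3.65, 2.00, 2.14 and 1.18 CPM in wild type and at 1.05, 1.02, 0.81 and 0.71 CPM in knockout, without overlap (log2 fold change -1.32, SE 0.51; edgeR unadjusted p = 0.020). Nfkbia, the inhibitor and target of NF-kappaB, also separated the libraries, at 37.5 to 59.0 CPM in wild type and 32.3 to 36.6 CPM in knockout (log2 fold change -0.43, SE 0.17; edgeR unadjusted p = 0.023). Ccl2, a monocyte chemokine, had a log2 fold change of -0.84 (SE 0.38; edgeR unadjusted p = 0.042) with overlapping libraries. Il1b, at -0.36, and Ccl5, at -0.90, had unadjusted p of 0.436 and 0.146 (edgeR). A list of NF-kappaB targets and feedback inhibitors, which holds the same 4 genes and was added after values were seen, had 11 of 13 fitted lower and a median of -0.36, which was -0.20 without knockout replicate 3. In a list of prostaglandin genes added in the same way, 8 of 13 were fitted lower, against 46.8% of all genes, and the median was -0.05. Ptger3 and Ptger4 (-0.95) had an unadjusted p below 0.05, against 0.845% of all genes on the lower side.

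**Figure D2:**
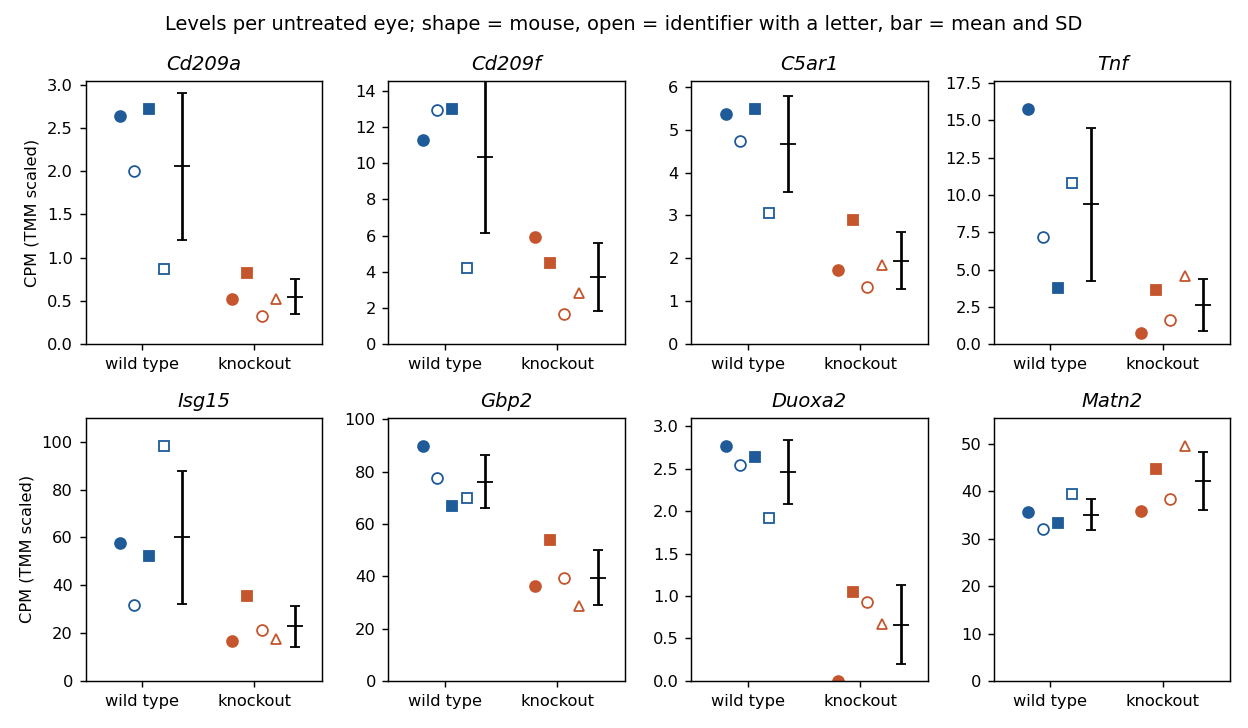
CPM of 8 genes (vertical axes, from 0) in the 4 wild-type (blue) and 4 knockout (red) untreated libraries; symbol shape marks the mouse within a genotype, open symbols are libraries with a letter in their identifier, and bars are the mean and SD of 4 libraries. Cd209a, C5ar1, Gbp2 and Duoxa2 do not overlap between genotypes, while Cd209f, Tnf, Isg15 and Matn2 do.

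Interferon-stimulated genes were fitted lower in knockout across a list of 18 that was drawn up after the values had been seen. The 18 encode antiviral effectors and regulators that are switched on by interferon. Promoters of many such genes carry the interferon-stimulated response element. Those of Isg15, Rsad2, Ifit1, Gbp2 and Ifi205 are shown here, taken from RefSeq (GRCm38.p6) and written 5′ to 3′ on the gene's strand. Capitals mark 2 copies of GAAA separated by any 2 bases, or the reverse complement with TTTC. Mx1, also described below, had no promoter entry. Whole windows of 250 bases before the annotated start are given for Isg15 (chr4:156200819-156201068, minus strand) and Rsad2 (chr12:26456453-26456702, minus strand). Stretches of 30 bases are given for Ifit1 (chr19:34640785-34640814, plus strand), Gbp2 (chr3:142620594-142620623, plus strand) and Ifi205 (chr1:174031870-174031899, minus strand).
Isg15: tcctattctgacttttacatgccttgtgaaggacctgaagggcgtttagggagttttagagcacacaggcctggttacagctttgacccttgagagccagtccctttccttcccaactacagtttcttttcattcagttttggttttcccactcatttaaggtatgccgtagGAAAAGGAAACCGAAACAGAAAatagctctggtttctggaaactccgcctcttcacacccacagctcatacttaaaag
Rsad2: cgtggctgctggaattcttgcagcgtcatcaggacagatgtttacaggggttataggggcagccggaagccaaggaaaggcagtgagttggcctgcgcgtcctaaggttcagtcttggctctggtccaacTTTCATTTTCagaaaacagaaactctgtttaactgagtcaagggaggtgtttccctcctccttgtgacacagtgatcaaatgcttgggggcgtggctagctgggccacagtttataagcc
Ifit1: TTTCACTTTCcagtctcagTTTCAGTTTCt
Gbp2: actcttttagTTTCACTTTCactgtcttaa
Ifi205: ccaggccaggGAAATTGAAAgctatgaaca

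This pattern of 2 GAAA copies, searched on both strands of the 250 bases before the start, was found for 12 of the 15 listed genes that have an entry (80%) and for 936 of 27025 genes with an entry (3.46%). In Isg15 there were 3 matches that overlap each other, the first beginning 78 bases before the start, and in Ifit1 there were 2, beginning 104 and 85 bases before it. Rsad2, Gbp2 and Ifi205 had 1 match each, at 120, 59 and 134 bases. These distances are from the RefSeq start. GENCODE starts Gbp2 further upstream, at chr3:142620602, so by that annotation its match lies inside the gene. A match describes the sequence and not binding in these samples.

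All 18 interferon-stimulated genes had a fitted value below 0, against 46.8% of all genes, and their median log2 fold change was -0.69. Isg15, a ubiquitin-like modifier, was at 57.5, 31.8, 52.2 and 98.2 CPM in wild type and at 16.9, 35.4, 21.2 and 17.6 CPM in knockout. Wild-type replicate 2 lay below knockout replicate 2, and the log2 fold change was -1.40 (SE 0.79; edgeR unadjusted p = 0.099). Ifit1, which binds foreign RNA, was at 56.2, 43.4, 91.0 and 110 CPM in wild type and at 22.2, 55.6, 46.5 and 33.3 CPM in knockout, again with overlap (log2 fold change -0.93, SE 0.58; edgeR unadjusted p = 0.128). For Rsad2, the antiviral enzyme viperin, wild type had 12.4, 11.4, 21.6 and 23.6 CPM and knockout 8.87, 11.9, 7.78 and 6.32 CPM. Only wild-type replicate 2 lay below a knockout library, and the log2 fold change was -0.98 (SE 0.51; edgeR unadjusted p = 0.072).

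The guanylate-binding protein gene Gbp2 was at 89.8, 77.7, 66.9 and 70.1 CPM in wild type and at 36.2, 53.8, 39.4 and 28.7 CPM in knockout. Its libraries did not overlap, and the log2 fold change was -0.95 (SE 0.47; edgeR unadjusted p = 0.062). Mx1, a dynamin-like GTPase, was at 2.91, 1.96, 12.3 and 4.36 CPM in wild type and at 0.67, 0.82, 1.77 and 1.61 CPM in knockout, without overlap (log2 fold change -2.13, SE 0.82; edgeR unadjusted p = 0.020). Wild-type replicate 3 was far the highest for Mx1, whose log2 fold change was -1.33 without it, -3.34 within libraries without a letter and -0.90 within those with one. Ifi205, of the interferon-inducible PYHIN family, was at 3.75, 2.35, 2.18 and 1.26 CPM in wild type and at 0.72, 1.28, 0.68 and 0.64 CPM in knockout, with wild-type replicate 4 just below knockout replicate 2 (log2 fold change -1.52, SE 0.46; edgeR unadjusted p = 0.0045). Mx1 and Ifi205 were the 2 members of 18 with an unadjusted p below 0.05, against 0.845% of all genes on the lower side. Libraries did not overlap for 3 of 18 genes (Bst2, Gbp2 and Mx1), against 0.67% of all genes on the lower side, and mouse means did not overlap for 11 of 18, against 6.82%.

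As a score, the mean log2(CPM + 1) of the 18 genes was 5.18, 4.76, 5.17 and 5.41 in wild-type replicates 1 to 4 and 4.28, 4.8, 4.49 and 4.20 in knockout replicates 1 to 4. The only overlap was that of wild-type replicate 2 with knockout replicate 2, which lay 0.04 apart. The list's median log2 fold change stayed between -0.88 and -0.61 in the 23 alternative analyses. Since the list was assembled after its values had been seen, neither count is a test.

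Immediate early genes, a list also drawn up afterwards, are induced within minutes by stress or growth factors. Of 15 tested, 14 were fitted lower and 1 (Egr2, 0.20) higher, against 46.8% of all genes fitted lower. The median was -0.43, or -0.69 without knockout replicate 4 and -0.37 without wild-type replicate 1. Zfp36, which destabilises cytokine messages, had a log2 fold change of -0.84 and Csrnp1 of -0.70 (edgeR unadjusted p = 0.030 and 0.016), 2 of 15 against 0.845% of all genes on the lower side. Fos, Jun and Egr1 were at -0.29, -0.38 and -0.79 with unadjusted p above 0.05. The summed level was 843, 511, 573 and 887 CPM in wild type and 501, 483, 455 and 547 CPM in knockout. Overlap came from wild-type replicate 2 with knockout replicate 4, and the 2 highest libraries were 1 eye of each wild-type mouse.

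Fbxl8, Ddo, Atpaf2 and Fbxo32 completed the named genes among the 12 lower ones with the smallest p. Fbxl8, an F-box protein that selects substrates for ubiquitination, was at 4.33, 4.15, 5.06 and 3.84 CPM in wild type and at 1.49, 1.90, 2.61 and 2.58 CPM in knockout. The libraries were well apart, and the log2 fold change was -1.01 (SE 0.26; edgeR unadjusted p = 0.0014, adjusted p = 1.00). Ddo, a peroxisomal oxidase of D-aspartate, was at 12.3, 8.97, 12.1 and 8.86 CPM in wild type and at 6.37, 4.91, 8.62 and 7.22 CPM in knockout (log2 fold change -0.64, SE 0.20; edgeR unadjusted p = 0.0058). Neither Ddo nor Atpaf2, an assembly factor of mitochondrial ATP synthase, had overlapping libraries. Atpaf2 was at 20.9, 19.5, 20.4 and 18.5 CPM in wild type and at 11.1, 15.6, 15.1 and 16.7 CPM in knockout (log2 fold change -0.44, SE 0.13; edgeR unadjusted p = 0.0047). Fbxo32, the F-box protein atrogin-1 known from muscle atrophy, had a log2 fold change of -0.47 (SE 0.15; edgeR unadjusted p = 0.0059) with overlap. For all 4 the value was larger within libraries without a letter than within those with one: -1.47 and -0.62 for Fbxl8, -1.12 and -0.17 for Ddo, -0.63 and -0.26 for Atpaf2, and -0.69 and -0.21 for Fbxo32. The last of the 12 was an unnamed gene model.

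Among the 12 higher genes with the smallest p, 5 were unnamed gene models and the named ones had small differences, with 1 exception. Sfmbt1, a chromatin protein with malignant brain tumour repeats, was at 25.5, 32.2, 30.5 and 30.8 CPM in wild type and at 39.1, 41.0, 30.7 and 41.9 CPM in knockout (log2 fold change 0.36, SE 0.11; edgeR unadjusted p = 0.0042, adjusted p = 1.00). Knockout replicate 3 was within the wild-type range, and the values without and with a letter were 0.51 and 0.20. Asf1a, a histone chaperone, was at 17.4 to 19.8 CPM in wild type and 21 to 27.1 CPM in knockout, without overlap (log2 fold change 0.34, SE 0.12; edgeR unadjusted p = 0.016). The X-linked genes Tceal1, related to a transcription elongation factor, and Trappc2, a subunit of the TRAPP vesicle tether, did not overlap either, with log2 fold changes of 0.40 and 0.38. Taf1b, part of the promoter selectivity factor of RNA polymerase I, was at 0.37 (0.56 without and 0.17 with a letter) and Abhd10, a mitochondrial hydrolase, at 0.33. The exception was Muc5b, a gel-forming mucin, at 0.57, 0.16, 0.08 and 0.74 CPM in wild type and 1.44, 0.10, 4.45 and 13.2 CPM in knockout. Its log2 fold change was 3.61 (SE 1.33; edgeR unadjusted p = 0.016), and a single eye, knockout replicate 4, gave most of the signal. Without it the value was 2.33, and within libraries without and with a letter it was 1.14 and 4.30.

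Genes of succinate metabolism had values close to 0. Of the 22 listed 20 were tested, 12 were fitted lower and 8 higher, and none had an unadjusted p below 0.05. All values lay between -0.16 and 0.17, and for 19 of 20 the 95% interval stayed within 2-fold. The subunits of succinate dehydrogenase, which consumes succinate, were at -0.08 (Sdha), -0.16 (Sdhb), -0.04 (Sdhc) and -0.01 (Sdhd). The succinyl-CoA ligase genes Suclg1, Suclg2 and Sucla2, which produce it, were at 0.07, -0.08 and -0.05. The dicarboxylate transporters Slc13a3 and Slc25a10 were at 0.12 and -0.10. Signalling partners of SUCNR1 were spread around 0: 8 of 18 were fitted lower and 10 higher, with a median of 0.04 and no unadjusted p below 0.05. Arrb2, the beta-arrestin with the smallest p of the list, was at 15.8 to 20.2 CPM in wild type and 12.6 to 19.2 CPM in knockout (log2 fold change -0.23, SE 0.17; edgeR unadjusted p = 0.188), while Gnai2 and Gnaq were at -0.06 and 0.03 and Vegfa at 0.04.

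Around the Sucnr1 locus, 172 annotated genes start within 5 Mb and 32 were tested. Of these 11 were fitted lower and 21 higher, with a median of 0.03, and 1 had an unadjusted p below 0.05, against 1.32% of all genes. That gene was Aadac (chr3:60025717-60040160, plus strand), the arylacetamide deacetylase gene close upstream of Sucnr1. It was at 2.70, 2.82, 1.94 and 3.36 CPM in wild type and at 0, 2.06, 0.45 and 0.64 CPM in knockout. Knockout replicate 2 was within the wild-type range, and the log2 fold change was -1.75 (SE 0.81; edgeR unadjusted p = 0.048). With 1 library left out the value for Aadac ran from -2.85 (without knockout replicate 2) to -1.36. P2ry14, a receptor for UDP-sugars in the same gene cluster, was at -0.54 (SE 0.30; edgeR unadjusted p = 0.092). With 1 library left out its value ran from -0.91 (without knockout replicate 2) to -0.39. Within libraries without and with a letter the values were -1.12 and -2.50 for Aadac and -0.23 and -0.93 for P2ry14.

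Transcripts of genes that define the RPE were close to wild-type level, and the functions themselves were not measured. Rpe65, the retinoid isomerase of the visual cycle, was at 2577, 2884, 4345 and 2506 CPM in wild type and at 3203, 3720, 3619 and 2635 CPM in knockout. The knockout range lay inside the wild-type range, and the log2 fold change was 0.10 with a 95% interval of -0.39 to 0.59. Of 18 visual cycle and identity genes 16 were fitted higher and 2 lower, with a median of 0.09 and no unadjusted p below 0.05, and for 17 the interval stayed within 2-fold. For melanin synthesis 10 of 12 genes were fitted lower, the median was -0.08 and all 12 intervals stayed within 2-fold. The receptors and ligands of outer segment uptake were even, with 7 of 14 lower and a median of 0.00; Mertk, the engulfment receptor, was at 0.02.

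Oxidative stress genes gave 19 of 30 fitted lower, a median of -0.03 and 1 gene with an unadjusted p below 0.05, against 1.32% of all genes. That gene was Hmox1, the inducible haem oxygenase, at 23.4, 23.9, 26.1 and 17.4 CPM in wild type and 18.6, 21, 16.4 and 13.8 CPM in knockout. The libraries overlapped (log2 fold change -0.38, SE 0.17; edgeR unadjusted p = 0.037). Keap1, which holds back the regulator NRF2, was at -0.17 and Nqo1, a target of NRF2, at 0.14. Lysosome and autophagy genes had 15 of 23 fitted lower and lipid handling genes 13 of 22, with medians of -0.05 each and no unadjusted p below 0.05. Elovl2, which elongates the fatty acids of photoreceptor membranes, had the smallest p of the lipid list (log2 fold change 0.42, SE 0.20; edgeR unadjusted p = 0.058).

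Angiogenic factors were split, with 9 of 19 fitted lower and a median of 0.00. Angpt2, which destabilises vessels, was at 4.82 to 10.1 CPM in wild type and 4.23 to 6.55 CPM in knockout (log2 fold change -0.55, SE 0.29; edgeR unadjusted p = 0.080). In the extracellular matrix list 12 of 28 were fitted lower and the median was 0.01. Its single gene with an unadjusted p below 0.05 was Matn2, an adaptor protein of the matrix, on the higher side (1 of 28, against 0.475% of all genes). Its levels were 35.6, 32.2, 33.3 and 39.5 CPM in wild type and 35.9, 44.8, 38.4 and 49.6 CPM in knockout, with overlap (log2 fold change 0.26, SE 0.12; edgeR unadjusted p = 0.036).

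**Figure D3:**
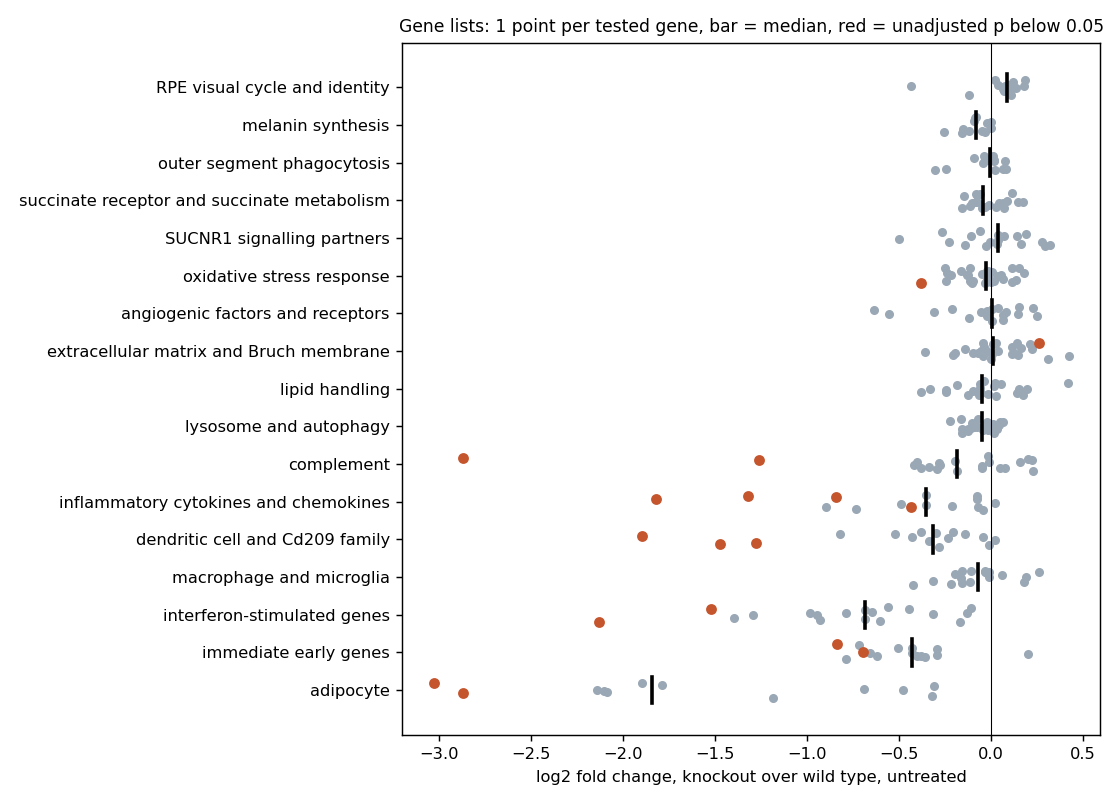
Log2 fold change of knockout over wild type in untreated mice (horizontal axis) for the tested members of 17 gene lists (rows). Points are genes, black bars are list medians and red points have an unadjusted p below 0.05; the RPE lists lie close to 0, and the cytokine, interferon-stimulated, immediate early and adipocyte lists have medians between -0.36 and -1.84.

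The hydroquinone mice share no sample with the untreated mice and give a second measurement of the genotype difference, under treatment. Sucnr1 itself had counts of 0, 0, 0 and 1 in wild type and 0, 0, 1 and 0 in knockout under hydroquinone. Its counts therefore did not set the genotypes apart in these mice. Of the 203 genes, 105 had the same sign there (51.7%), against 57.2% of all genes. An unadjusted p below 0.05 in both comparisons was found for 11 genes, 5.42% of the 203 against 4.18% of all genes, and 8 of the 11 had the same sign. No gene passed under hydroquinone, where 643 had an unadjusted p below 0.05, and none passed the test of the interaction of genotype with treatment, where 296 did (edgeR, smallest adjusted p of the interaction 1.00). The number of 8 genes was 1 without wild-type replicate 1, 23 without knockout replicate 2 and 5 without knockout replicate 4.

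Of the 8, 4 were fitted lower in both. Duoxa2, the maturation factor of the hydrogen peroxide-producing oxidase DUOX2, was at 2.77, 2.55, 2.63 and 1.92 CPM in wild type and at 0, 1.05, 0.94 and 0.67 CPM in knockout, without overlap. Its log2 fold change was -1.87 untreated and -1.59 under hydroquinone (edgeR unadjusted p = 0.021 and 0.042). Under hydroquinone the libraries of Duoxa2 overlapped, at 0.68 to 5.36 CPM in wild type and 0.59 to 1.02 CPM in knockout. The highest levels there were in wild-type replicates 1 and 2. Its neighbour Duox2 was at 3.24, 2.47, 2.72 and 3.45 CPM in wild type and at 1.77, 2.33, 1.77 and 1.20 CPM in knockout. These untreated libraries of Duox2 did not overlap, and its log2 fold change was -0.74 untreated and -0.96 under hydroquinone (edgeR unadjusted p = 0.024 and 0.0061). Tiparp, an ADP-ribosyltransferase induced by the aryl hydrocarbon receptor, was at 55.6 to 76.0 CPM in wild type and 38.0 to 54.5 CPM in knockout, with log2 fold changes of -0.41 and -0.33. Slc17a9, the vesicular nucleotide transporter, was at 2.86 to 3.99 CPM in wild type and 1.64 to 2.78 CPM in knockout, with log2 fold changes of -0.56 and -0.64. The untreated value of Slc17a9 was -0.95 within libraries without a letter and -0.20 within those with one.

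In a list of dual and NADPH oxidase genes added after values were seen, 9 of 10 were fitted lower untreated (median -0.28) and 5 of 10 under hydroquinone, against 46.8% and 46.9% of all genes. The untreated median was -0.47 without knockout replicate 1, -0.11 without knockout replicate 4, and 0.02 and -0.85 within libraries without and with a letter. Cybb, the phagocyte oxidase, was at -0.01 untreated. The other 4 of the 8 were fitted higher in both. Matn2 had log2 fold changes of 0.26 untreated and 0.55 under hydroquinone (edgeR unadjusted p = 0.036 and 2.4e-04). Col2a1, the chain of type II collagen, was at 4.22, 6.35, 7.95 and 13.4 CPM in wild type and at 12.1, 6.39, 12.7 and 30.2 CPM in knockout. The libraries overlapped, and the log2 fold changes were 0.94 untreated, or 0.37 without knockout replicate 4, and 0.97 under hydroquinone. Foxd1, a forkhead transcription factor, was at 0.56 and 0.67, and Ust, a uronyl sulfotransferase of chondroitin and dermatan sulfate, at 0.38 and 0.49. Opposite signs were found for Ddo (-0.64 and 0.63), for the heparan sulfate sulfotransferase Hs3st1 (-0.54 and 0.66) and for an unnamed gene model. The interaction had an unadjusted p of 4.2e-04 for Ddo and 0.0013 for Hs3st1 (edgeR, adjusted p = 1.00 for each).

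The leading genes of the untreated comparison had mixed signs under hydroquinone. Of the 12 lower genes 6 and of the 12 higher genes 5 had the same sign there. Cd209a was at 1.32, 2.10, 2.54 and 1.49 CPM in wild type and at 1.94, 1.14, 1.10 and 1.58 CPM in knockout under hydroquinone, with overlap. Its log2 fold change was -0.37 (edgeR unadjusted p = 0.359; interaction unadjusted p = 0.016, adjusted p = 1.00). Cd209f was at -0.76, Tnf at -0.13, C5ar1 at 0.05 and Fbxl8 at 0.02. The cytokine list had a median of -0.06, with 9 of 15 fitted lower.

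All 18 interferon-stimulated genes were fitted lower under hydroquinone as well, with a median of -0.63, against 46.9% of all genes in that comparison and 25.4% in both. These genes are all switched on by interferon and so are not independent, and the list was drawn up after values were seen, so this count is not a test. Their libraries overlapped widely. Isg15 was at 177, 399, 5.41 and 63.9 CPM in wild type and at 99.6, 54.0, 59.5 and 25.3 CPM in knockout (log2 fold change -1.44; edgeR unadjusted p = 0.089). The score ran from 4.01 to 6.59 in wild type, with wild-type replicate 3 below every knockout library, and from 4.54 to 5.28 in knockout. None of the 18 had an unadjusted p below 0.05 there (edgeR). Immediate early genes were fitted lower in 15 of 15 under hydroquinone, with a median of -0.39. Their sums overlapped, at 975, 1633, 414 and 525 CPM in wild type and 701, 723, 443 and 437 CPM in knockout. Wild-type replicate 3 was again below every knockout library. This list too was drawn up after values were seen, so its count is not a test.

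**Figure D4:**
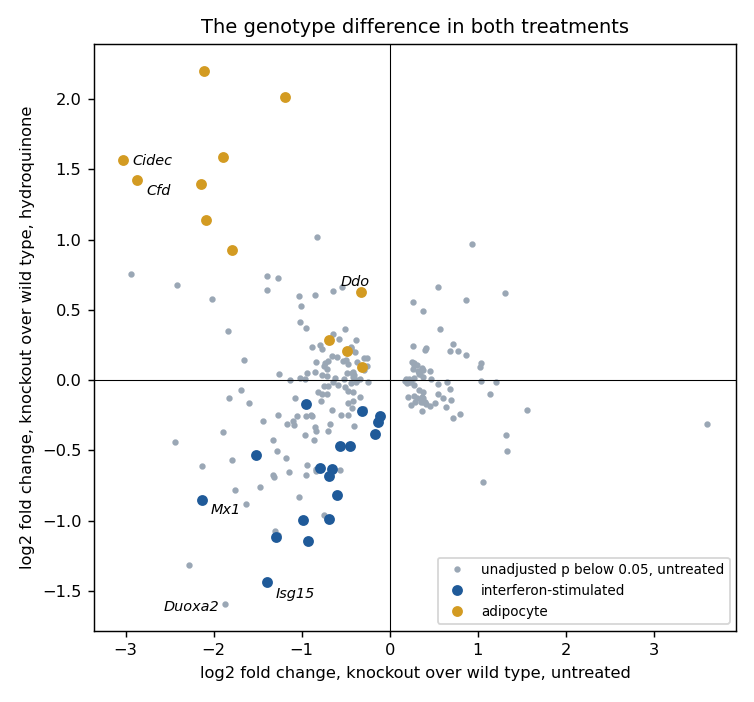
Log2 fold change of knockout over wild type in untreated mice (horizontal axis) and in hydroquinone mice (vertical axis), which share no samples. Grey points are the 203 genes with an unadjusted p below 0.05 untreated, blue points 18 interferon-stimulated genes, all below 0 on both axes, and yellow points 12 adipocyte genes, below 0 untreated and above 0 under hydroquinone.

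Markers of other cell types moved with some of these results. Adipocyte genes, listed after the values had been seen, were fitted lower in 12 of 12, against 46.8% of all genes, with a median of -1.84. Their sum was 206, 847, 111 and 104 CPM in wild type and 211, 92.4, 76.4 and 101 CPM in knockout, so wild-type replicate 2 stood apart and the other 7 libraries overlapped. Cidec, a lipid droplet protein, was at 5.68, 38.3, 2.88 and 2.31 CPM in wild type and at 2.40, 1.6, 0.03 and 2.02 CPM in knockout. Without wild-type replicate 2 its log2 fold change went from -3.03 to -1.27, that of Cfd from -2.87 to -0.74 and the median of the list from -1.84 to -0.17. Under hydroquinone 0 of the 12 were fitted lower and the median was 1.27.

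Fatty acid synthesis genes, another list made afterwards, had 5 of 11 with an unadjusted p below 0.05, all lower, against 0.845% of all genes on the lower side, and a median of -0.25. Thrsp, a lipogenic nuclear protein, was at -2.01 and Fasn, fatty acid synthase, at -0.51 (edgeR unadjusted p = 0.0082 and 0.016). The summed level of the list was 2752, 3594, 2339 and 2432 CPM in wild type and 2257, 2185, 2253 and 2162 CPM in knockout. The wild-type libraries were all above the knockout libraries, by a narrow margin in replicate 3, and replicate 2 was again the highest. Without wild-type replicate 2 the list median was -0.24. Under hydroquinone 1 of 11 was fitted lower and the median was 0.16. The part of the adipocyte markers in these values was not tested.

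Skeletal muscle markers were fitted lower in 12 of 12, with a median of -0.50 (from -1.12 without knockout replicate 1 to -0.30 without knockout replicate 2) and overlapping sums (3163 to 7188 CPM in wild type, 2016 to 7762 CPM in knockout), and Myh11 of smooth muscle had a log2 fold change of -1.01 (SE 0.42; edgeR unadjusted p = 0.030). All 15 rod markers were fitted higher, with a median of 0.46 that was -1.69 without knockout replicate 4. Endothelial markers were at a median of -0.06 and fibroblast markers at -0.04. Corneal and surface epithelium markers summed to 15250, 5140, 7636 and 12570 CPM in wild type and 9507, 11490, 7204 and 6311 CPM in knockout. The highest of these libraries, wild-type replicates 1 and 4, were also highest for the immediate early sum and the interferon score. Within knockout, replicate 4 had the lowest corneal sum but the highest immediate early sum. Under hydroquinone the corneal sums were 24790, 29370, 4294 and 8221 CPM in wild type and 8815, 14000, 5116 and 3719 CPM in knockout. Wild-type replicates 1 and 2 had the highest of these sums and were also highest for the immediate early sum and the interferon score. The part of the corneal markers in those values was not tested. The plot of marker sums holds 9 lists: RPE, rods, corneal and surface epithelium, skeletal muscle, oligodendrocytes and Schwann cells, fibroblasts, macrophages and microglia, dendritic cells with the Cd209 family, and adipocytes. None of these 9 sums separated the genotypes.

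**Figure D5:**
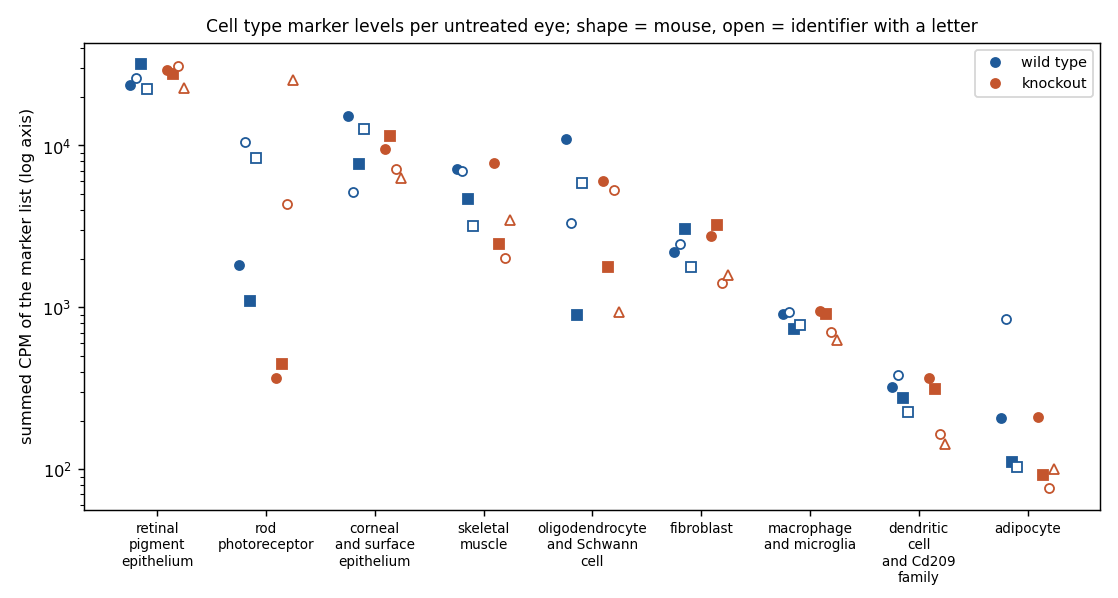
Summed CPM of 9 marker lists (vertical log axis) in each untreated library, wild type in blue and knockout in red; symbol shape marks the mouse within a genotype and open symbols are libraries with a letter in their identifier. The genotypes overlap for every list, and 1 wild-type library (847 CPM) is far above the others for adipocyte markers.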

How the data were processed

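RNA from mouse RPE was measured by RNA sequencing. The authors deposited 1 table of whole-number read counts for 51912 Ensembl genes in 16 libraries; its name announces FPKM, but 100% of the values are whole. The submitters' processing notes list STAR, Cufflinks, DESeq2 and mm10 without roles, and the counting tool, strand setting and annotation are not given in the sources used here. Names and positions came from GENCODE vM21 (GRCm38), matched for 51719 genes. The 15380 genes whose CPM averaged 1 or more across the 16 libraries were fitted with edgeR 4.0.16 (R 4.3.3) by the quasi-likelihood F test, TMM scaling and 4 group means. SEs follow from the F statistic, and adjustment was by the Benjamini-Hochberg method. DESeq2 1.42.0 and limma 3.58.1 were alternatives.

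Members and lists were chosen with earlier results of these data known. Named genes are the 12 with the smallest p in each direction (unnamed models only counted), Sucnr1, Cd209a and up to 2 per list. The interferon, immediate early, adipocyte, fatty acid synthesis, NF-kappaB, NADPH oxidase and prostaglandin lists, and the genes shared with hydroquinone, were added after values were seen. Replicate numbers follow accession order. The labels' protocol gives 4 animals per group, whereas the titles name 2 and 3 untreated mice; titles were followed. The fit was tested on counts simulated with independent libraries and a common dispersion. That test does not cover eyes that share a mouse or tissue that varies between libraries. Promoters are RefSeq's, matched by symbol. Some values that the lists gave are not reported here.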

Additional observations from a re-analysis of the deposited data

Results flagged for a closer look

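Among 218 sets of 4 untreated libraries (109 genes or list scores in each genotype, on the log2(CPM + 1) scale), 8 held a library far from the other 3, measured as the gap to the nearest library over the whole range; chance alone gives about 1 in 20 such sets. Wild-type replicate 4 was far below its group for Cd209f (2.38 against 3.62 to 3.80; gap 0.868 of the range), Cd209b (0.48 against 1.69 to 1.74; 0.956) and Pi16, a marker of adventitial fibroblasts (6.03 against 7.16 to 7.21; 0.952). Knockout replicate 2 was far above its group for P2ry14 (2.85 against 1.89 to 2.01; 0.874) and Ifi205 (1.19 against 0.71 to 0.78; 0.851). Knockout replicate 4 was far above its group for Ptger3 (1.87 against 1.26 to 1.35; 0.848) and for the immediate early score (4.57 against 4.21 to 4.23; 0.941). Knockout replicate 1 was far above its group for Gm10167, an unnamed gene model (2.93 against 1.28 to 1.45; 0.893). The causes were not tested.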

How the results depend on the processing

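In none of the 23 alternatives did a gene reach an adjusted p below 0.05. The 203 genes with an unadjusted p below 0.05 became 721 without a filter on low counts, 117 at a mean of at least 5 CPM, 95 with eyes of a mouse summed, 128 with eye side and 398 with the rod score as covariate, 637 within libraries with a letter, 360 without the 2 libraries with the fewest detected genes (an alternative chosen after seeing the data) and 140 to 375 with 1 library left out. The 8 genes shared with hydroquinone became 16, 5, 3, 40, 54 and 13 under the first, second, eye side, rod score, letter and fewest-detected settings, 13 with DESeq2, 5 with identifier form as covariate, 4 within libraries without a letter and 1 to 23 with 1 library left out. The Cd209a difference was -0.94 with eyes as libraries (exact permutation p = 0.029, the smallest that 70 arrangements allow; eyes of a mouse are not independent, and the gene was chosen for its small p). Of 71 named genes 67 kept their sign throughout. The sign reversed for Csf1r (0.014 without a filter, 0.006 with only untreated libraries, 0.021 without a letter, -0.080 to 0.075 with 1 library left out), Mrc1 (-0.048 with rod score, -0.82 with a letter, -0.10 without the fewest-detected libraries, -0.16 to 0.42 left out), Rpe65 (-0.002 without a letter) and Cd209g (0.26 without a letter). The causes were not tested. No paired analysis was possible because replicate numbers follow accession order and genotypes share no mouse.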
